A study of Caenorhabditis elegans with 2 samples.

Results

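The genes hlh-30, daf-16, skn-1, pqm-1, mxl-3, sbp-1 and zip-2 encode transcription factors of C. elegans that act on stress resistance, infection response and fat metabolism, much of it in the intestine. They were taken by symbol from the gene annotation, 7 of 19973 protein-coding genes, and described by the regions called in and around them from ChIP-seq of the GATA factor ELT-4. A region was assigned to a gene when its summit, the position that the peak caller gives within it (here nearly always the midpoint), lay in the gene body or up to 2000 bp upstream. These windows held 51 of the 30000 regions in the list called on both replicates pooled, 48 of 30000 in the list of each replicate, and 2 of the 342 IDR peaks, the set left by filtering on the irreproducible discovery rate, which is meant to retain regions that replicates rank alike.

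The study has a single group of 2 biological replicates. Both were whole hermaphrodite animals of strain OP111, which carries unc-119(ed3) III and the integrated transgene wgIs111, a fusion of ELT-4 to a C-terminal GFP-FLAG tag. They were collected as late embryos 3 hours after synchronization by egg bleaching, sheared by sonication and precipitated with an anti-GFP antibody (another label field gives elt-4 as the antibody). The labels describe 1 transgenic line, name no driver and give no untagged group, and cells of the intestine were not separated from other cells, so no value below belongs to the intestine alone.

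ELT-4 is a small zinc finger protein of the GATA family, whose members in the worm endoderm include ELT-2, a factor needed for intestinal differentiation; GATA factors bind sites of the type TGATAA. HLH-30, the worm counterpart of TFEB, and MXL-3 are basic helix-loop-helix proteins that bind the E-box CACGTG and act in opposite directions on lysosomal lipase genes. DAF-16, the FOXO factor downstream of the insulin receptor, binds GTAAACA. PQM-1, a zinc finger protein, also acts in the insulin response and is tied to an element that itself contains TGATAA. SKN-1, related to Nrf factors, specifies endoderm and mesoderm in the early embryo and directs detoxification later; SBP-1 is the worm SREBP, a regulator of fatty acid synthesis; and ZIP-2 is a bZIP factor of the response to bacterial infection.

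The sequence at the strongest pooled region is shown for 4 of the genes: hlh-30 because its region had the highest signal of all 51, pqm-1 and mxl-3 because theirs held searched motifs, and sbp-1 as the strongest region in a coding exon. Each is the 201 bp centred on the summit on the plus strand of the RefSeq WBcel235 (ce11) assembly, from IV:4028168-4028368 for hlh-30, II:11151009-11151209 for pqm-1, X:13351312-13351512 for mxl-3 and III:11441440-11441640 for sbp-1. Capitals mark CACGTG, and TGATAA on either strand; GTAAACA was searched too and is in none of the 4.
hlh-30: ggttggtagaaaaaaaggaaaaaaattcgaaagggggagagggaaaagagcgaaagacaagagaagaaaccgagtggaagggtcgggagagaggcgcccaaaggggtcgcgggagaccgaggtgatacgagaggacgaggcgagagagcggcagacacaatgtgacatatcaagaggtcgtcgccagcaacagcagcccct
pqm-1: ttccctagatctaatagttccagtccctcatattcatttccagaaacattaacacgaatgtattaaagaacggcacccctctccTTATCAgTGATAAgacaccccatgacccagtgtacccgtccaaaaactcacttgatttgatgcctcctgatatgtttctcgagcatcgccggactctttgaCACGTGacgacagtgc
mxl-3: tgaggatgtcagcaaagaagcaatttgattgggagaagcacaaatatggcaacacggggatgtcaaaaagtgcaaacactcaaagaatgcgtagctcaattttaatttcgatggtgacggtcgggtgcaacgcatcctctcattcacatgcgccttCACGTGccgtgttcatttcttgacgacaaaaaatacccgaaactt
sbp-1: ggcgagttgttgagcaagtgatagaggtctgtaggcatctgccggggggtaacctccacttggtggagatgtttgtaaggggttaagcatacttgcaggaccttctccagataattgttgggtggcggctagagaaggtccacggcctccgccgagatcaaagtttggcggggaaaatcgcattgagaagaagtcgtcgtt
The pqm-1 window holds a GATA-type site on each strand, back to back with 1 base between them, and an E-box. The mxl-3 window holds an E-box, while those of hlh-30 and sbp-1 hold none of the 3 motifs. Only the exact letters TGATAA were searched as the GATA type. The sbp-1 window holds the similar AGATAA and TGATAG, which were not searched. On the plus strand shown, 74.6% of the bases of the hlh-30 window are purines; windows at least as one-sided on either strand made up 0.437% of all pooled regions and 1.46% of the IDR peaks, a property looked at after the sequence had been seen.

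Every one of the 7 genes had at least 1 pooled region, as did 68.1% of all protein-coding genes, so the presence of a region separates them little from other genes. They differed in the strength of it (the plot of pooled signal by gene). Signal is the value that the authors' peak caller gave each region, in units that are not given, and rank 1 is the highest signal of a list. The strongest region of each gene had a signal of 89.9 in hlh-30 (rank 150), 79.6 in daf-16 (rank 311), 62.2 in sbp-1 (rank 1257), 58.4 in zip-2 (rank 1673), 51.8 in pqm-1 (rank 2801), 39.3 in skn-1 (rank 7468) and 28.1 in mxl-3 (rank 17930). Their median was 58.4, against 36.1 over all genes with a region. A long window has more chances of a strong region: over the 1510 genes with windows over 10000 bp, a length class to which hlh-30, daf-16, skn-1 and sbp-1 belong, the median was 47.9.

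**Figure D1:**
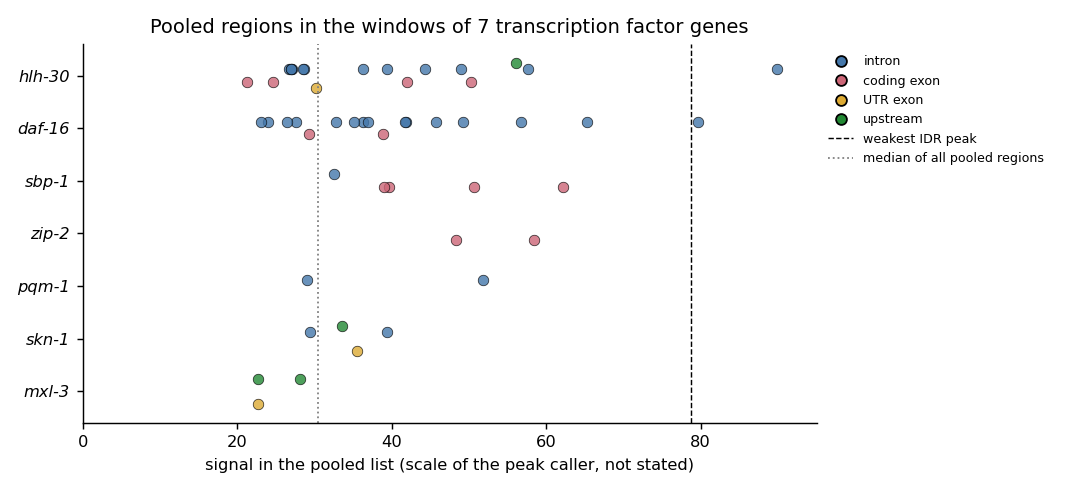
Signal (horizontal axis) of each of the 51 pooled regions, 1 point a region, by gene (rows, ordered by strongest region) and by the annotation at the summit (colour; points are set apart vertically by class). Only 1 region of hlh-30 (89.9) and 1 of daf-16 (79.6) pass the dashed line of the weakest IDR peak (78.7), and all 3 mxl-3 regions lie below the dotted median of all pooled regions (30.5).

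An IDR peak was present in 2 of the 7 genes, hlh-30 and daf-16, against 1.97% of all protein-coding genes. Among genes with windows over 10000 bp these were 2 of 4 members, against 6.16% of that class. At a q-value, the caller's significance adjusted for multiple testing, of at most 0.05 there were 3 of 7 genes, sbp-1 being added, against 6.81% of all genes, and 3 of 4 with long windows against 20.7%. One of the 1000 strongest pooled regions lay in 2 of 7, against 5.51%. The weaker of the 2 member regions inside the IDR list was that of daf-16 at 79.6, and the next one down, also in daf-16, had 65.3 (rank 978). At the q-value limit sbp-1 was just inside (0.0489) and zip-2 just outside (0.0780). The IDR peaks were exactly the 342 strongest pooled regions, so they require no like rank in the replicates. In the lists of single replicates, a region among the 342 strongest lay in 2 of the 7 genes for replicate 1, again hlh-30 and daf-16, against 2% of all genes, and in 0 of 7 for replicate 2, against 2.04%. With replicate 2 alone, therefore, neither gene would be counted.

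The gene hlh-30 (WBGene00020930, IV:4014793-4034951, minus strand) has 13 annotated transcripts that begin at 10 distinct starts spread over its length. Its IDR peak spanned IV:4028033-4028502, with the summit at 4028268, 141 bp upstream of the start shared by isoforms b and c, and inside a 7694 bp intron of the 3 transcripts that begin farther upstream. The signal there was 47.6 in replicate 1 (rank 122) and 40.5 in replicate 2 (rank 659), 44.0 ± 5.03 (mean ± SD, n = 2), and the replicate summits lay 1 and 29 bp from the pooled one. It was the strongest hlh-30 region of both replicates. A neighbour overlapped it, with the summit at 4028482 and a pooled signal of 48.97, but there the replicates diverged, with 30.99 in replicate 1 (rank 1555) and 14.5 in replicate 2 (rank 24892).

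Some of the other hlh-30 regions lay near annotated starts and others did not. Whether they lay nearer to starts than to the rest of the gene was not tested. With a start window defined as 1000 bp upstream to 200 bp downstream of an annotated start, all 10 hlh-30 starts had a pooled region, several sharing the same one. The starts at 4034784 (isoforms i and j) and 4027063 (isoforms d and e) belong to transcripts annotated without a 5′ UTR. They may therefore be starts of coding sequence. At the farthest upstream start, that of the second d transcript, the summit lay 62 bp upstream (IV:4034778-4035247, pooled signal 56.0, 27.4 ± 3.59 in the replicates). At the start of isoform e and the other d transcript it lay 162 bp upstream (IV:4026990-4027459, 39.4). At the cluster of starts of isoforms a, f and g it lay 110 bp downstream of the nearest, in coding sequence of some transcripts (IV:4018694-4019163, 50.3), and was uneven, with 28.6 in replicate 1 (rank 2302) and 13.4 in replicate 2 (rank 28376). The second strongest region of the gene was at no start: IV:4029618-4030087 (57.7, 29.3 ± 2.91) lay in the long intron, 1726 bp upstream of the b and c start. Its replicate 2 summit was at the pooled one, but its replicate 1 summit lay 181 bp away. The same pair of replicate regions was also matched to the next pooled region (summit 4030185), so their close values do not belong to 1 summit. Of the 18 pooled regions, which merge into 11 where they overlap, 12 had intronic summits, and 15 overlapped a region in both replicate lists.

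**Figure D2:**
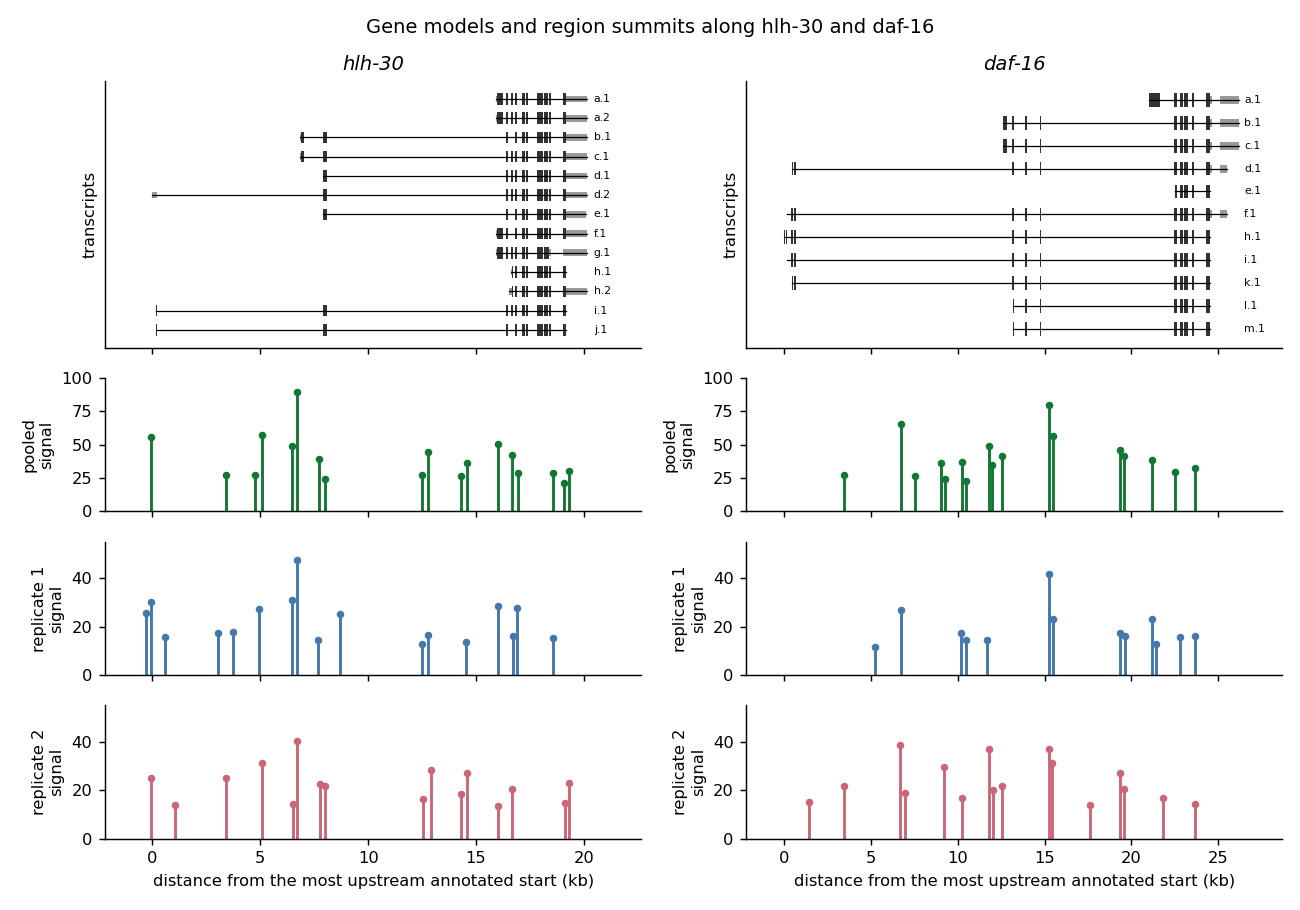
Annotated transcripts (top; black boxes coding exons, grey other exons, letters the isoforms) and region summits along hlh-30 and daf-16, by distance from the most upstream annotated start in kb, with signal in the pooled, replicate 1 and replicate 2 lists (vertical axes, scale of the peak caller). The tallest hlh-30 summit stands just before the b and c start in every list, whereas the tallest daf-16 summit, intronic in every list, stands in one intron in the pooled and replicate 1 lists (79.6 and 41.7) and in another, farther upstream, in replicate 2 (38.9).

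In daf-16 (WBGene00000912, I:10750498-10776703, plus strand, 11 transcripts, 7 starts) the IDR peak was not at an annotated start. It spanned I:10765511-10765980, in a 7676 bp intron shared by 9 transcripts, 2092 bp downstream of the start of isoforms l and m. The signal was 41.7 in replicate 1 (rank 291) and 37.0 in replicate 2 (rank 1096), 39.3 ± 3.28 (n = 2), and an overlapping neighbour had a pooled signal of 56.7. The second region, I:10756961-10757430 (pooled signal 65.3, q-value 0.0302), lay in the 12401 bp intron before the b and c start, with its summit also inside the noncoding RNA gene R13H8.4. Here the order of the replicates was the other way, with 27.0 in replicate 1 (rank 2920) and 38.9 in replicate 2 (rank 815), which was the highest daf-16 value of replicate 2.

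Of the daf-16 starts, 4 of 7 had a pooled region in the start window and the 3 farthest upstream had none. The start of isoforms b and c had a summit 73 bp upstream (41.8, found in replicate 2 only) and another 825 bp upstream (49.2) whose signal was 14.4 in replicate 1 (rank 19770) and 37.1 in replicate 2 (rank 1086). The start of isoform a had a summit 190 bp downstream (38.8, found in replicate 1 only). Of the 17 pooled regions, 15 were intronic, 10 overlapped a region in both replicate lists and 1, with a pooled signal of 26.5, overlapped none. All 7 daf-16 starts belong to transcripts annotated without a 5′ UTR, so their starts may be those of coding sequence.

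The lipid regulator sbp-1 (WBGene00004735, III:11428367-11442566, minus strand) has 1 transcript and 5 pooled regions, of which 4 lay in coding exons and none in the start window. Each replicate list alone had a weak region there, 443 bp upstream of the start in replicate 1 (13.3, rank 23230) and 177 bp downstream in replicate 2 (18.4, rank 14792). The strongest (III:11441305-11441774, 1026 bp downstream of the start) was stronger in replicate 1, with 37.4 there (rank 561) and 19.4 in replicate 2 (rank 12953), 28.4 ± 12.8 (n = 2), the widest spread among the strongest regions of the 7 genes. The highest sbp-1 value of replicate 2, 28.8 (rank 3475), was at another coding summit, 11440233, to which replicate 1 had no counterpart. The region at III:11437418-11437887 (pooled signal 50.6), which held an E-box, had the closest replicate values of the gene, 21.9 in replicate 1 and 22.2 in replicate 2.

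The infection-response gene zip-2 (WBGene00019327, III:832982-835814, plus strand, 3 transcripts) had both of its pooled regions in coding exons common to all its transcripts and none at its 3 starts. The strongest (III:834716-835185, 646 bp downstream of the nearest start) had 23.4 in replicate 1 (rank 5183) and 30.9 in replicate 2 (rank 2563), and the other, at III:834445-834914, had 19.6 in replicate 1 and 24.0 in replicate 2. Summits of both replicates lay within 10 bp of the pooled ones in each case.

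In pqm-1 (WBGene00004096, II:11150391-11152595, minus strand) both pooled regions were intronic. The strongest (II:11150874-11151343), whose window with 2 GATA-type sites and an E-box is printed above, lay 1486 bp downstream of the start in a 452 bp intron, with 21.9 in replicate 1 (rank 6518) and 32.1 in replicate 2 (rank 2187). The start window held no pooled region, though replicate 2 alone had one there (22.7, rank 8173). The neighbouring pooled region (29.0) overlapped the same region of replicate 2.

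The skn-1 gene (WBGene00004804, IV:5651039-5660384, minus strand, 4 transcripts) had no region near the strong ones, although its window is over 10000 bp long. The strongest of its 4 pooled regions (IV:5659163-5659632) lay in a 4347 bp intron of isoform a and had close values, 19.1 in replicate 1 (rank 9951) and 20.3 in replicate 2 (rank 11453). The region 81 bp downstream of the isoform b start had 12.4 in replicate 1 and 22.8 in replicate 2. The upstream region, summit 5661359, lay inside the neighbouring gene bec-1, which encodes an autophagy protein, so it cannot be given to skn-1 alone. The highest skn-1 values of the pooled list and of each replicate were at 3 different summits.

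The E-box factor gene mxl-3 (WBGene00003511, X:13349639-13350804, minus strand) had the lowest signal of the 7 at its strongest region. The pooled signals were 28.1, 22.7 and 22.7, with q-values of 0.728 or more. The strongest, X:13351177-13351646, lay 608 bp upstream of the start, inside the noncoding RNA gene C49F8.8. It overlapped a replicate 1 region of 17.3 (rank 12934) and a replicate 2 region of 24.7 (rank 6221), whose summit was 290 bp away. The next pooled region upstream (summit 13351763) overlapped the same replicate regions, and the replicate 2 summit lay only 61 bp from it. The mxl-3 density of 0.948 regions per kb rests on 3 regions in a window of 3166 bp.

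Over the 7 windows, 90115 bp in all, pooled regions had a density of 0.566 per kb, against 0.299 per kb over the genome. Over the 1510 gene windows longer than 10000 bp it was 0.329 per kb. The density was uneven among the members: 0.812 in hlh-30, 0.603 in daf-16, 0.353 in skn-1 and 0.309 in sbp-1. Of the 1510 long windows, 31 (2.05%) were at least as dense as hlh-30 and 186 (12.3%) as dense as daf-16, against 635 (42.1%) for skn-1 and 742 (49.1%) for sbp-1. Overlapping regions about 200 bp apart were listed separately, and the 51 member regions merge into 35, so they are not independent. Introns held 32 of the 51 summits (62.7%) and made up 65.8% of the window bases, coding exons held 12 (23.5%) on 13.8% of the bases, UTR exons 3 (5.88%) on 4.93%, and upstream sequence 4 (7.84%) on 15.5%. Over the windows of all protein-coding genes, with their own make-up of bases, introns held 26.7% of the summits, coding exons 34.7%, UTR exons 3.74% and upstream sequence 34.9%. Of the annotated starts, 18 of 27 had a pooled region in the start window (66.7%), against 9456 of 29784 (31.7%) over all protein-coding genes; starts of 1 gene lie close together and share regions.

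Replicate support was uneven as well. Of the 51 pooled regions 38 (74.5%, exact Clopper-Pearson 95% interval 60.4 to 85.7, which covers counting of regions only) overlapped a region in both replicate lists, against 16769 of 30000 pooled regions (55.9%). The interval takes the 51 regions as independent, although they merge into 35 and some share a replicate region. It is therefore no test against the share of all pooled regions. A further 5 overlapped one of replicate 1 only, 7 one of replicate 2 only and 1 neither. The median distance of the replicate summit from the pooled one was 21 bp for replicate 1 and 25 bp for replicate 2. Over the 38 regions, some of which share a replicate region, Spearman's rho of the 2 signals was 0.301. It was not computed over all pooled regions, so it cannot be called low or high for these genes.

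**Figure D3:**
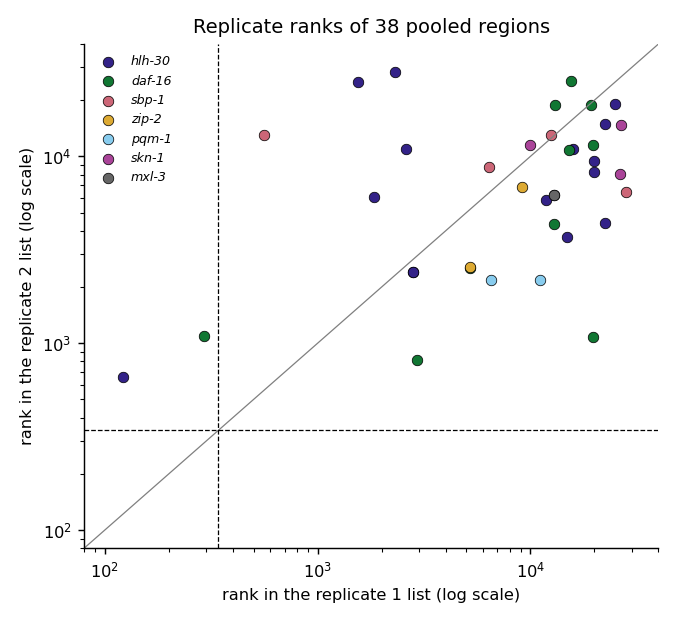
Rank in the replicate 1 list (horizontal) against rank in the replicate 2 list (vertical), both on log axes, for the 38 pooled regions found in both, coloured by gene; the solid line is equal rank and the dashed lines mark rank 342, the number of IDR peaks. Points spread widely about the line; hlh-30 (122) and daf-16 (291) lie left of the dashed line for replicate 1, and no point lies below that for replicate 2.

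GC content within 100 bp of the summit averaged 45.4% ± 6.85 (SD over 51 regions), against 43.2% ± 7.36 over all pooled regions, 53.3% ± 7.09 over the IDR peaks and 35.4% in the genome. It ran from 26.9% at a daf-16 intron summit to 59.2% at the daf-16 IDR peak, and was 54.7% at the hlh-30 IDR peak. The mean over a gene's regions was above the GC content of the whole gene, 38.0% to 40.2%, in 6 of the 7 genes, and below it in mxl-3 (36.2% at its regions, 40.2% in the gene). Across the 51 regions Spearman's rho of GC content and pooled signal was 0.642, against 0.383 across all pooled regions; the regions share libraries and in part bases, and the part of GC content in the signal was not tested. By location, GC content averaged 49.005% in coding exons, 44.9% in introns, 42.8% upstream and 39.8% in UTR exons. All 36-mers were unique in the genome in the windows of 50 of the 51 regions, the exception being a daf-16 intron region (summit 10769867, 91.6%). A tRNA or snoRNA gene lay within 500 bp of 0 regions. Neither count was made over all pooled regions, so neither can be called particular to these genes.

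**Figure D4:**
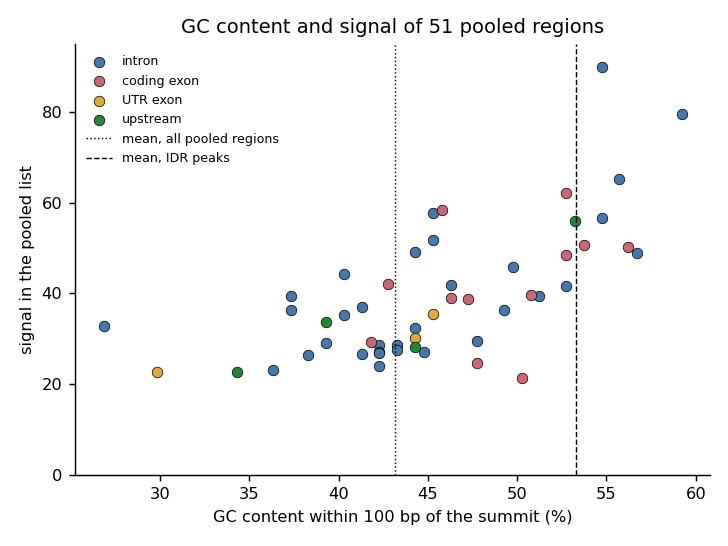
GC content within 100 bp of the summit in percent (horizontal) against pooled signal (vertical) for the 51 regions, coloured by location; lines mark the mean of all pooled regions (43.2%) and of the IDR peaks (53.3%). The daf-16 peak (59.2%) and the hlh-30 peak (54.7%) stand at the upper right.

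Searched on both strands within 100 bp of the summit, TGATAA lay in 11 of the 51 windows (21.6%), against 12.5% of all pooled windows and 5.56% of IDR windows. They were 4 windows of hlh-30, 4 of daf-16, 2 of pqm-1 and 1 of mxl-3. CACGTG lay in 5 windows (9.80%), 2 of mxl-3 and 1 each of daf-16, pqm-1 and sbp-1, against 4.75% of all pooled windows. GTAAACA lay in 3 windows (5.88%), 2 of hlh-30 and 1 of mxl-3, against 1.83%. Neither IDR peak had any of the 3, and among the strongest regions of the 7 genes only those of pqm-1 and mxl-3 did. These counts cover the exact letters only, and variants such as AGATAA were not searched.

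Of 65 genes chosen as partners, upstream regulators or known targets of the 7 factors, 60 had a pooled region, against 68.1% of all protein-coding genes. A q-value of at most 0.05 was reached in 8 of the 65, against 6.81%, and 3 of the 65 had an IDR peak, against 1.97%. The median of their strongest signals was 37.7, close to the 36.1 of all genes with a region and below the 58.4 of the 7 factors, with a median window of 5285 bp, against 4027 bp over all genes. The 3 IDR peaks lay in an intron of unc-51, an autophagy kinase gene (V:19998213-19998682, 79.6, with 29.6 in replicate 1 and 46.9 in replicate 2), in coding sequence of lipl-5, a lysosomal lipase gene (V:386260-386729, 84.1, with 40.4 and 32.7), and in coding sequence of cebp-1, a C/EBP factor gene (X:1452957-1453426, 83.8, with 40.7 and 49.04). The other 5 under the q-value limit were unc-62, a homeodomain factor (72.2), pod-2, acetyl-CoA carboxylase (71.9), mdt-15, a Mediator subunit that works with SBP-1 and SKN-1 (66.9, upstream), daf-2, the insulin receptor (62.7), and fat-5, a fatty acid desaturase (62.2). The heat shock factor gene hsf-1, the SKN-1 target gcs-1, and ceh-60, cebp-2 and zip-10 had no pooled region.

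**Figure D5:**
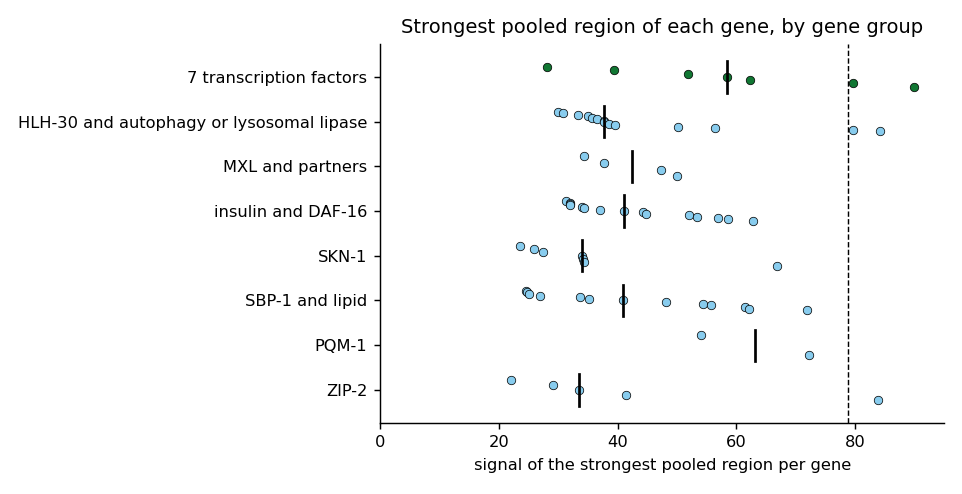
Signal of the strongest pooled region of each gene (points), for the 7 transcription factors and for 7 groups of related genes (rows); vertical bars are medians and the dashed line is the weakest IDR peak. The 7 factors have a median of 58.4, against 33.4 to 63.1 in the related groups, the highest being a group of which only 2 genes had a region.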

How the data were processed

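The authors called regions on each replicate and on both pooled, and deposited narrowPeak lists on ce10 and ce11; the ce10 lists were not used. The signal of each region and the −log10 of its q-value are as deposited, signal in units that are not given; IDR peaks carry their pooled values. Per the labels a control experiment may exist, which was not analysed here. Library depth is unknown, and its part in any value was not tested. Aligner, peak caller and IDR threshold were not given in the sources used here. Signals were not scaled between replicates, whose list medians were 16.4 (replicate 1) and 18.3 (replicate 2).

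Genes and transcripts came from Ensembl release 115 for WBcel235, the same assembly as ce11; all 30000 pooled regions ended inside its chromosomes. Coordinates are 1-based. A summit in several transcripts took the class coding exon, then UTR exon, then intron. Regions matched when they shared at least 1 bp. Windows of all genes were treated alike, and the assignment was tested on simulated regions. Python 3.11.15, pandas 2.3.3, numpy 2.4.6 and scipy 1.17.1 were used. With a single group there was no test between conditions. The named genes are the 7 factors, related genes with an IDR peak or a q-value of at most 0.05, and genes sharing a named summit; related genes without a region were named after their values were seen. The members and lists were chosen with earlier results of these data known. The length class of windows over 10000 bp and the purine share were chosen after values were seen.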

Additional observations from a re-analysis of the deposited data

How the results depend on the processing

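Of 58 alternative values, 33 were classed as the same as the reported ones and 25 as moved. The class of same values allowed some change, and for counts of genes it rests on no measured spread. With a q-value of at most 0.1 the count of genes was 4, and in the replicate 2 list at 0.05 it was 2. Both were classed as the same as the 3 reported. Among the 100 strongest IDR peaks, 0 of the 7 genes had one, and from 1 replicate list in place of the pooled one the count ran from 0 to 2. At a q-value of at most 0.01 the count fell to 1, and among the strongest 3000 pooled regions it was 5. No share of all genes was computed for the q-value limits of 0.1 and 0.01 or for the replicate 2 list at 0.05. Nor was it for the 100 strongest IDR peaks or the strongest 3000 pooled regions. Those counts therefore have nothing to be set beside. Density was 0.614 per kb with 1000 bp upstream, 0.522 with 5000 bp, 0.577 counting any overlap, and 0.533 in either replicate list. Mean GC content was 44.7% with 5000 bp upstream, 46.1% within 50 bp of the summit, 43.5% within 250 bp and over whole regions, and 44.8% to 45.4% in single replicate lists. The share found in both replicate lists was 52.9% when 50% of the shorter region had to be shared and 47.1% with summits within 100 bp, against 46.1% and 29.1% of all pooled regions under those rules. The cause was not tested. No paired analysis was possible because there is a single group. With no counts, the depth behind each signal is unknown.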
